A study of Drepana arcuata with 6 samples.

Results

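The peptide signalling genes neuropeptide F precursor (TRINITY_DN13765_c0_g1), npr-1 (TRINITY_DN16480_c1_g1) and corazonin receptor (TRINITY_DN18580_c1_g2) were followed in larvae of the masked birch caterpillar, Drepana arcuata, a moth whose young larvae live in groups and whose older larvae live alone. They are 3 of the 116079 Trinity genes in the deposited abundance tables, a Trinity gene being a set of transcripts that the assembler Trinity built from shared sequence, and they were chosen by name from the study's list of candidate social genes. Together they hold 24 of the 231348 assembled transcripts, called isoforms here: 2 of neuropeptide F, 3 of npr-1 and 19 of the corazonin receptor. The gene names rest on the study's similarity searches against proteins of other species. No assembled bases were analysed here, so the names could not be checked.

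The 6 libraries came from whole larvae that all hatched from eggs of 1 female and fed on paper birch. Each of the 3 late instar libraries was a pool of 5 solitary larvae (instars IV and V, mixed 3 to 2), and each of the 3 early instar libraries was a pool of 20 grouped larvae of instars I and II in about equal numbers. Stage, body size, larvae per pool and social state changed together between the groups and cannot be told apart. Because 1 family was sampled, the p-values below measure the spread between pools of siblings and not between families.

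Neuropeptide F is the insect relative of the vertebrate neuropeptide Y. It is cut from a precursor protein, is made by neurons of the brain and by endocrine cells of the midgut, and in larvae of Drosophila melanogaster it promotes feeding and foraging. The gene npr-1 of the nematode Caenorhabditis elegans encodes a receptor of the neuropeptide Y receptor family that couples to G proteins, and natural variants of it separate worms that feed in aggregates from worms that feed alone. Corazonin is a neurosecretory peptide of insects that acts through its own G protein-coupled receptor, and in the ant Harpegnathos saltator it is tied to the behaviour of workers as against reproductive individuals. The 3 genes thus stand for a ligand and for receptors of 2 peptide families.

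The only bases of these genes read here are the RT-qPCR primers that the authors list for isoform i2 of neuropeptide F. Whether these primers separate i2 from isoform i1 was not examined. They are shown because i2 carries most of the change described below. Both are printed 5′ to 3′ with no capitals, since no site within them was examined. The forward primer is 20 nt long with 60.0% G or C, and the reverse primer is 24 nt long with 45.8% G or C.
neuropeptide F i2 forward primer: cgtaaagtcctcccagagcg
neuropeptide F i2 reverse primer: gctacagaataaaaccatgtcccg

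The libraries held 15109224 to 35571272 expected counts in late instars and 11177800 to 46307057 in early instars, an expected count being the number of fragments that RSEM assigned to a transcript. Levels are given as CPM, counts scaled to library size and TMM factor, and for genes 1 CPM stands for 10.7 counts in early replicate 2, the shallowest library, and 48.6 counts in early replicate 1, the deepest. Across genes, libraries of 1 stage correlated at 0.937 to 0.983 on log2(CPM + 1) and libraries of different stages at 0.803 to 0.861, the lowest value within a stage being that of late replicates 1 and 2. Each result was therefore also computed without late replicate 2, and the calls on the 3 genes were the same.

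The neuropeptide F precursor was down-regulated in late instars, at a level 12.4-fold higher in early instars, which makes it the strongest difference of the 3 genes. Late replicates 1, 2 and 3 held 1.88, 2.50 and 3.66 CPM, and early replicates 1, 2 and 3 held 33.4, 32.8 and 31.9 CPM. The lowest early library was above the highest late library by far more than the spread within either stage, and the early libraries lay close together while late replicate 3 was higher than late replicate 1. The 95% exact Poisson intervals of these levels, which cover counting error only, were 1.47 to 2.38 CPM for late replicate 1 and 2.75 to 4.76 CPM for late replicate 3, so those late libraries differed beyond counting error. In early instars the intervals of the 3 libraries overlapped, from 29.4 CPM at the lowest bound to 36.4 CPM at the highest. Mean levels were 2.68 ± 0.899 CPM in late instars and 32.7 ± 0.719 CPM in early instars (SD, n = 3 each), from 194 counts in all late libraries and 2688 in all early libraries.

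The log2 fold change of neuropeptide F, late minus early, was -3.63 (SE 0.27, 95% interval -4.25 to -3.02), with an adjusted p of 3.80e-05 by edgeR's quasi-likelihood test and Benjamini-Hochberg adjustment over 22132 Trinity genes. The gene passed the study's limits, which ask for an adjusted p no larger than 0.001 and a change of 2 or more log2 units in either direction. Its fold of 12.4 in early over late instars had a 95% interval of 8.11 to 19.0. Over all tested genes, 3.96% passed these limits as lower in late instars and 4.87% as higher, and 2.52% had a lower log2 fold change than neuropeptide F. By edgeR's exact test and by DESeq2 it was called as well (adjusted p = 2.07e-24 and 2.54e-34), beside 6.32% and 5.94% of the tested genes called lower in late instars by these tools. The study listed this gene together with its change in these same libraries, so the call is not independent evidence. The authors also measured it by RT-qPCR in larvae of another female, as part of a set of selected transcripts. Over that set they report a high correlation between RT-qPCR and RNA-seq changes. The RT-qPCR value of neuropeptide F itself was not used here. In whole larvae, fewer cells that express a gene and less of its RNA per cell cannot be told apart.

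The gene npr-1 was also lower in late instars, by a smaller fold and at a far lower level than neuropeptide F. Late replicates 1, 2 and 3 held 1.37, 1.52 and 0.997 CPM, from 51, 42 and 15 counts. Early replicates 1, 2 and 3 held 3.62, 5.34 and 4.36 CPM, from 176, 57 and 98 counts. The stages did not overlap, and the largest upper Poisson bound among late libraries, 2.05 CPM, was below the smallest lower bound among early libraries, 3.11 CPM. Mean levels were 1.30 ± 0.270 CPM in late instars and 4.44 ± 0.860 CPM in early instars (SD, n = 3 each).

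For npr-1 the log2 fold change was -1.74 (SE 0.28, 95% interval -2.40 to -1.08), or a level 3.34-fold higher in early instars (2.12 to 5.27). The adjusted p was 0.00233 by edgeR's quasi-likelihood test, so npr-1 met neither of the study's limits and is lower only at an adjusted p of 0.05, a limit that 15.7% of tested genes passed as lower in late instars and 14.0% as higher. By edgeR's exact test (adjusted p = 2.41e-05) and DESeq2 (adjusted p = 1.38e-05) it passed the limit on p but not the limit on the fold. Of the tested genes, 7.41% had a lower log2 fold change.

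The corazonin receptor did not pass any limit, and its levels overlapped between the stages. Late replicates 1, 2 and 3 held 15.3, 11.3 and 16.1 CPM, and early replicates 1, 2 and 3 held 18.2, 11.6 and 10.5 CPM. The highest and the lowest library were both early ones, early replicate 1 and early replicate 3, so the early libraries alone spanned all the late values. Means were 14.2 ± 2.57 CPM in late instars and 13.4 ± 4.19 CPM in early instars (SD, n = 3 each), from 1123 and 1245 counts. The log2 fold change was 0.077 (SE 0.26, adjusted p = 0.861 by edgeR's quasi-likelihood test). Its 95% interval, -0.53 to 0.68, corresponds to late levels of 0.694 to 1.6 times the early ones and includes no difference.

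**Figure D1:**
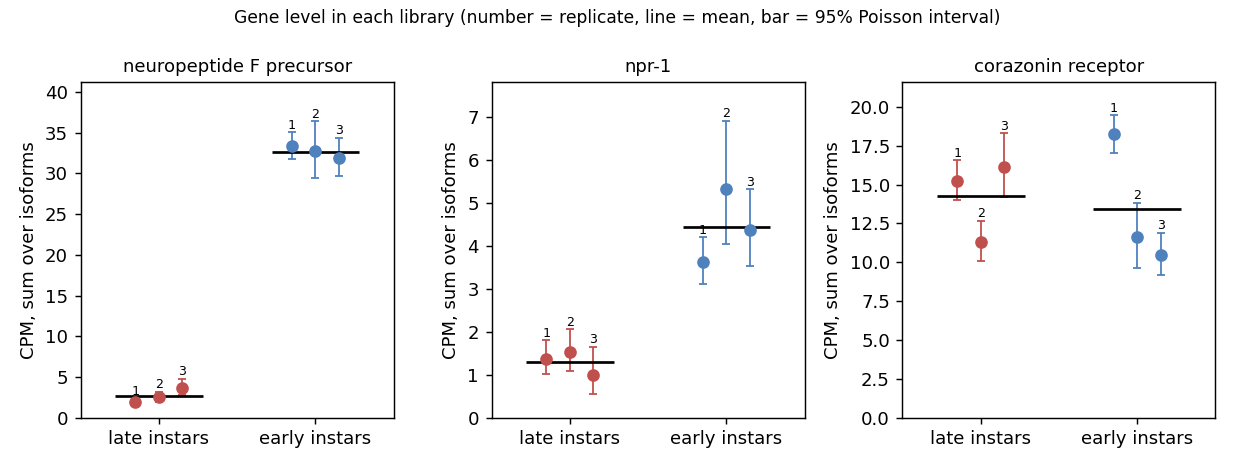
CPM of each gene, summed over its isoforms, in every library (late instars left, early instars right); points are libraries numbered by replicate, bars their 95% Poisson intervals and lines the means. Late libraries lie below all early libraries for neuropeptide F (1.88 to 3.66 against 31.9 to 33.4) and npr-1 (0.997 to 1.52 against 3.62 to 5.34), and overlap them for the corazonin receptor.

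Of the 3 genes, 2 had all late libraries below all early libraries, a pattern that 23.8% of the tested genes had in that direction. With 3 libraries a stage, the smallest p an exact two-sided permutation test can give is 0.1, and for the gene's summed TPM it gave 0.1 for neuropeptide F, 0.1 for npr-1 and 0.8 for the corazonin receptor.

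TPM, which divides counts by effective length and so lets genes be compared with one another, put the 3 genes in a different order in the 2 stages. In late instars the corazonin receptor was highest, with 3.36, 2.16 and 3.23 TPM in replicates 1, 2 and 3, neuropeptide F came next with 0.54, 0.63 and 0.97 TPM, and npr-1 was lowest with 0.23, 0.22 and 0.16 TPM. In early instars neuropeptide F was highest, with 8.17, 7.60 and 6.87 TPM, the corazonin receptor came next with 3.83, 2.30 and 1.63 TPM, and npr-1 was lowest with 0.51, 0.75 and 0.64 TPM. Neighbours in these orders did not overlap in any library of the stage. Neuropeptide F and the corazonin receptor thus changed places between the stages, while npr-1 stayed below both.

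Set against all tested genes, neuropeptide F moved furthest through the range of TPM levels. Its mean of 0.713 ± 0.227 TPM in late instars was above that of 15.7% of tested genes, and its mean of 7.55 ± 0.652 TPM in early instars was above that of 76.3% (SD, n = 3 each). For npr-1 the means were 0.203 ± 0.0379 TPM in late instars and 0.633 ± 0.120 TPM in early instars, above 4.72% and 16.9% of tested genes, so this receptor was among the weakest tested genes in both stages. The corazonin receptor stood near the middle of the range, with 2.92 ± 0.659 TPM in late instars and 2.59 ± 1.13 TPM in early instars, above 47.6% and 50.9% of tested genes.

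The study tested transcripts, and its list gives 1 isoform for each gene: i2 of neuropeptide F, i2 of npr-1 and i6 of the corazonin receptor. Of the 24 isoforms, 7 had more than 1 CPM in at least 2 libraries and were tested, 2 of neuropeptide F, 2 of npr-1 and 3 of the corazonin receptor. By edgeR's quasi-likelihood test 0 of the 7 passed the study's limits, and 0% of the 52912 tested transcripts did, although 12871 transcripts had an unadjusted p under 0.05 and the smallest adjusted p was 0.00247. At an unadjusted p under 0.05, 2 of the 7 passed, both of them isoforms of neuropeptide F, beside 12871 of all 52912 tested transcripts.

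Neuropeptide F had an isoform i1 of 1362 bp and an isoform i2 of 1333 bp, which differ by 29 bp in length, and both were lower in late instars. Isoform i2 held 52.89, 57.68 and 44.01 expected counts in late replicates 1, 2 and 3, and 1452.51, 314.14 and 592.87 in early replicates 1, 2 and 3. Its level was 2.20 ± 0.775 CPM in late instars and 28.8 ± 2.73 CPM in early instars, a log2 fold change of -3.72 (SE 0.34, adjusted p = 0.00417 by edgeR's quasi-likelihood test). Isoform i1 held 17.11, 11.32 and 10.99 expected counts in late replicates and 168.49, 35.86 and 124.13 in early replicates. Its level was 0.541 ± 0.183 CPM in late instars and 4.13 ± 1.13 CPM in early instars, a log2 fold change of -2.94 (SE 0.46, adjusted p = 0.0156).

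The late and early libraries did not overlap for either isoform of neuropeptide F, which was so in that direction for 17.2% of tested transcripts. At an adjusted p of 0.05 both isoforms passed, as did 4.25% of tested transcripts in that direction. Without late replicate 1 or early replicate 3, i1 no longer passed that limit (adjusted p = 0.0589 and 0.0502 by edgeR's quasi-likelihood test), while i2 passed it whichever library was left out. With the replicate number as a block in the same test, neither isoform passed it (adjusted p = 0.0818 for i1 and 0.0563 for i2). At the study's limits edgeR's exact test called i2 alone (adjusted p = 4.82e-09), with 2.11% of transcripts called lower in late instars. DESeq2 called i1 (adjusted p = 5.35e-07) and i2 (adjusted p = 2.53e-26), with 3.31% called lower.

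Isoform i2 was the main isoform of neuropeptide F in all 6 libraries. It held 76.00, 83.93 and 80.41% of the gene's TPM in late replicates 1, 2 and 3, and 89.83, 89.98 and 83.03% in early replicates. The share of i1 averaged 19.9 ± 3.97% in late instars and 12.4 ± 3.97% in early instars, with overlapping libraries (exact two-sided permutation p = 0.2). In edgeR's test of isoform usage, which sets the change of an isoform against that of its gene, i1 had a relative log2 fold change of 0.47 (adjusted p = 1.0).

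The 2 tested isoforms of npr-1 differed in pattern, and the split of the gene's counts between them changed from library to library. Isoform i3 (2140 bp) held 27.46, 0.00 and 3.03 expected counts in late replicates 1, 2 and 3, and 87.13, 27.90 and 85.81 in early replicates. Isoform i2 (2333 bp) held 23.54, 39.32 and 11.26 expected counts in late replicates, and 85.44, 25.75 and 0.00 in early replicates. Late replicate 2 was listed at 0 for i3 and early replicate 3 at 0 for i2, although in each of these libraries the other isoform of the same gene had counts.

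Neither npr-1 isoform passed a limit. Isoform i3 was at 0.315 ± 0.382 CPM in late instars and 2.74 ± 0.951 CPM in early instars. Every late library was below every early one, a pattern that 17.2% of tested transcripts had in that direction. The log2 fold change of i3, -3.07, had a 95% interval of -6.16 to 0.031 (SE 1.27, adjusted p = 0.210 by edgeR's quasi-likelihood test). Isoform i2, the isoform on the study's list, was at 0.950 ± 0.429 CPM in late instars and 1.42 ± 1.26 CPM in early instars. Its log2 fold change was -0.56 (SE 1.40, adjusted p = 0.881) and its 95% interval, -3.96 to 2.84, was far wider than that of the summed gene. The difference in npr-1 was thus measured on the sum of its isoforms and not on the listed isoform. The remaining isoform, i1 (1094 bp), had 4 counts in late and 18 in early libraries and was not tested.

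The share of npr-1 held by i2 was 43.85, 86.23 and 69.34% of TPM in late replicates 1, 2 and 3, and 45.17, 40.11 and 0.00% in early replicates. Late replicate 1 lay below early replicate 1, so the stages overlapped, and the exact two-sided permutation p was 0.2 for i2 and 0.3 for i3. In the usage test the relative log2 fold changes were 0.76 for i2 and -0.98 for i3, both with an adjusted p of 1.0.

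**Figure D2:**
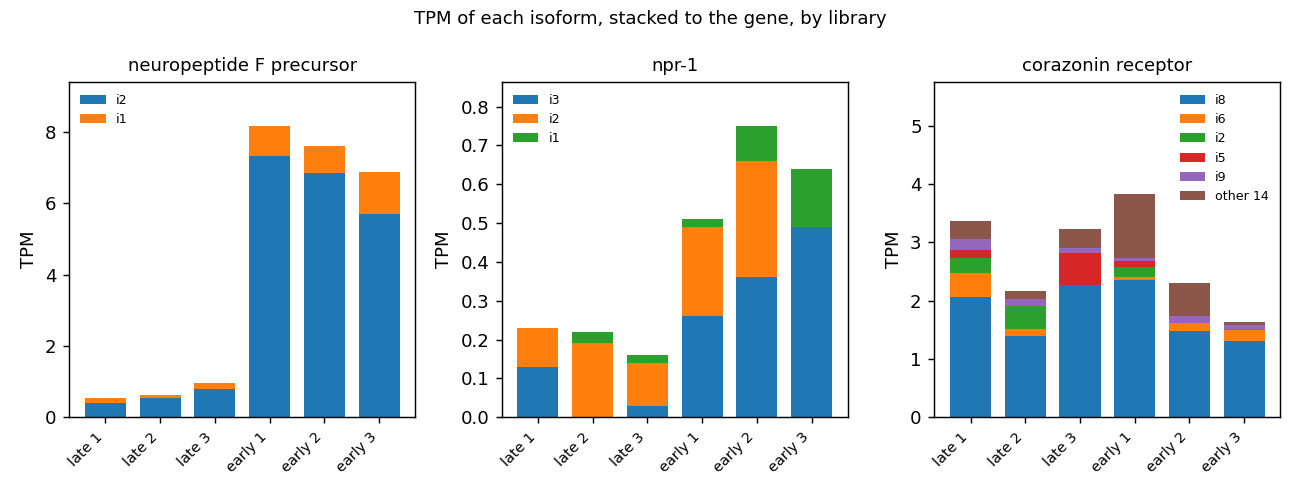
TPM of each isoform, stacked to the gene, in each library (late replicates left, early replicates right); colours are isoforms, and the 14 weaker corazonin receptor isoforms are summed. Isoform i2 makes up 76.00 to 89.98% of neuropeptide F in every library, npr-1 is split differently from library to library, and i8 makes up 61.39 to 80.14% of the corazonin receptor.

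The corazonin receptor was assembled as 19 isoforms of 287 to 2058 bp, 7 of them under 500 bp, and isoform i8 (1834 bp) carried most of its counts. Isoform i8 held 378.29, 218.00 and 182.17 expected counts in late replicates 1, 2 and 3, and 669.53, 97.32 and 195.00 in early replicates. It made up 65.4 ± 4.37% of the gene's TPM in late instars and 68.7 ± 9.98% in early instars (SD, n = 3 each), with an exact two-sided permutation p of 0.8. At 10.3 ± 2.17 CPM in late instars and 10.7 ± 3.30 CPM in early instars its log2 fold change was -0.057 (SE 0.32, 95% interval -0.84 to 0.72, adjusted p = 0.953 by edgeR's quasi-likelihood test), so this main isoform overlapped between the stages as the gene did.

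The isoform of the corazonin receptor on the study's list, i6 (1913 bp), was a minor one. It held 79.93, 18.63 and 0.00 expected counts in late replicates 1, 2 and 3, and 15.35, 9.68 and 30.11 in early replicates, and took 5.89% of the gene's TPM on average in late instars and 6.43% in early instars. Both the highest and the lowest level of i6 were in late libraries. Its log2 fold change was 0.20 (SE 1.41, 95% interval -3.22 to 3.63, adjusted p = 0.962), and that of i2 (1892 bp) was 1.71 (SE 2.08, adjusted p = 0.715), from 48.19, 64.18 and 0.00 expected counts in late replicates and 48.93, 0.00 and 0.00 in early replicates. The value of i2 rests on early replicate 1, without which every early library is at 0.

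The other 16 isoforms of the corazonin receptor were too weak to be tested. Isoform i5 (2058 bp), the longest, was listed with 29.30, 0.00 and 50.07 expected counts in late replicates and 33.11, 0.00 and 0.00 in early replicates. The number of isoforms with at least 1 rounded count was 9, 8 and 5 in late replicates 1, 2 and 3, and 16, 5 and 5 in early replicates, the highest number being in early replicate 1, which is also the deepest library. In the late libraries 7 of the 19 isoforms had 0 rounded counts, and 2 of these, i13 and i14, had 0 in all 6 libraries. Isoform usage did not pass for any of the 7 tested isoforms of the 3 genes at an adjusted p of 0.05, against 1.56% of the isoforms tested for usage.

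**Figure D3:**
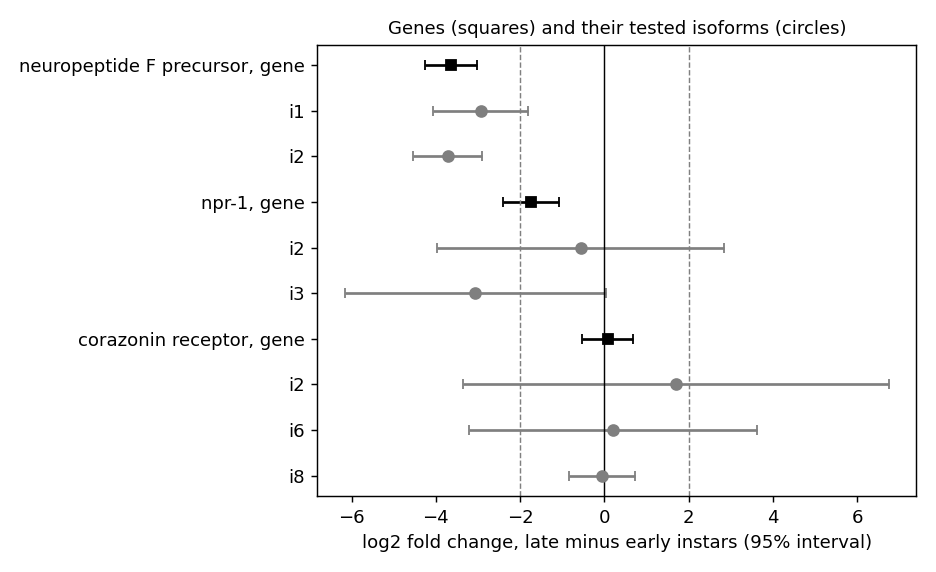
Log2 fold change, late minus early, with its 95% interval, for the 3 genes (black squares) and their 7 tested isoforms (grey circles); dashed lines mark the study's limit of 2 in either direction. The interval of neuropeptide F lies wholly below -2, that of npr-1 lies below 0 and crosses -2, that of the corazonin receptor crosses 0, and the isoform intervals of both receptors other than i8 are far wider than those of their genes.

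The study's list holds 8 further candidate social genes, all of which were tested here on counts summed over isoforms, whereas the study called single transcripts. At the study's limits edgeR's quasi-likelihood test called 1 of them lower in late instars, the octopamine receptor, and 2 higher, cAMP-dependent protein kinase and the gene listed as vitellogenin or vitellogenin receptor, beside 3.96% and 4.87% of all tested genes. The exact test and DESeq2 each called 3 lower, adding takeout (log2 fold change -2.36) and period (-2.45), and called the same 2 higher. With the limit of 0.05 on the adjusted p alone, 3 were lower, 3 higher and 2 did not pass by the quasi-likelihood test, beside 15.7% lower and 14.0% higher over all tested genes. Their median log2 fold change was -0.40, beside -0.0027 over all tested genes.

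For 3 listed genes of neurotransmission, values are given beside those of the peptide genes because the libraries hold whole larvae. The octopamine receptor, which binds the insect counterpart of noradrenaline, was at 0.228 ± 0.0993 CPM in late instars and 6.75 ± 1.35 CPM in early instars (log2 fold change -4.98, adjusted p = 4.53e-05 by edgeR's quasi-likelihood test). Syntaxin 1a, a protein of synaptic vesicle fusion, was at 15.4 ± 0.764 CPM in late instars and 10.2 ± 1.42 CPM in early instars (log2 fold change 0.59, adjusted p = 0.0418 by the quasi-likelihood test, 0.119 by edgeR's exact test and 0.0193 by DESeq2). The dopamine receptor was at 6.11 ± 1.07 CPM in late instars and 9.28 ± 1.79 CPM in early instars (log2 fold change -0.60, adjusted p = 0.0941). Other listed genes that also act in neurons, among other cells, had log2 fold changes of -2.45 for period (adjusted p = 0.00408), 7.06 for cAMP-dependent protein kinase (adjusted p = 2.30e-05) and -0.20 for the cGMP-dependent protein kinase for (adjusted p = 0.565). These genes did not share a direction, and the part of tissue proportions in the lower neuropeptide F and npr-1 levels was not tested. The values given here are for isoforms summed to the gene, whereas the study's list gives single transcripts. On that list a dopamine receptor transcript is differential and higher in early instars. A transcript of the gene for is listed as differential and higher in late instars.

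**Figure D4:**
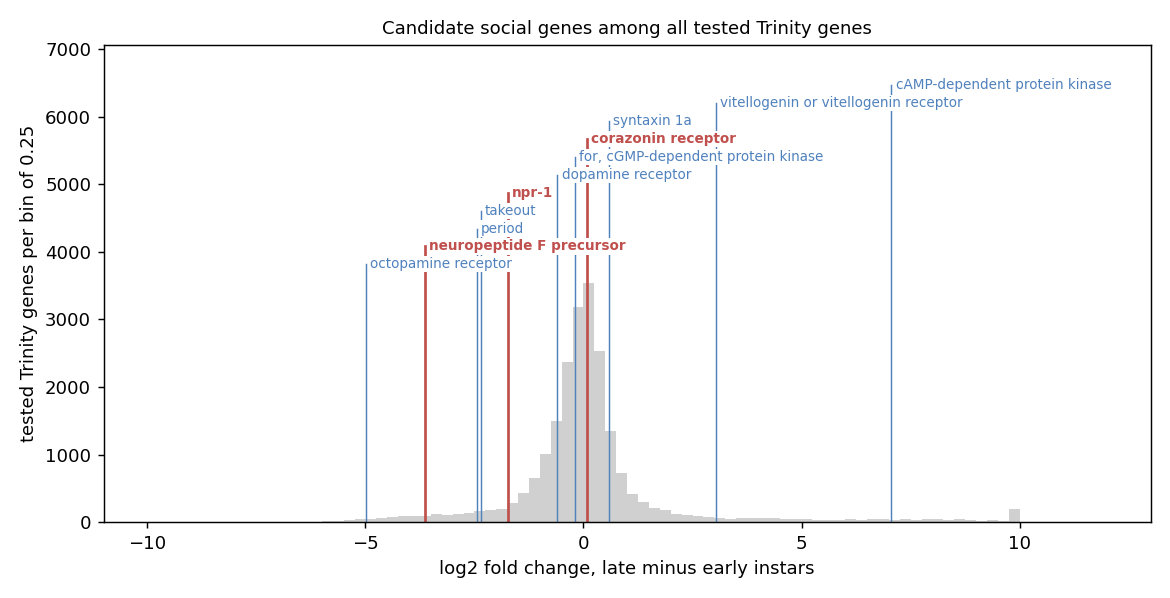
Number of tested Trinity genes per 0.25 of log2 fold change, late minus early (grey bars; the outermost bins also hold the 163 genes beyond 10 in size), with lines at the 3 peptide signalling genes (red) and the 8 other genes of the study's list (blue); line heights only space the labels. Neuropeptide F (-3.63) lies in the lower tail, npr-1 (-1.74) at the edge of the main peak and the corazonin receptor (0.077) in its centre.

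The genes whose profiles over the 6 libraries were most like those of the 3 genes were sought by the root mean square difference of log2(CPM + 1), each gene centred on its own mean, among tested genes of similar mean level. Nearest to neuropeptide F was TRINITY_DN14011_c0_g1 (difference 0.129, among 5995 genes), at 1.29 ± 0.278 CPM in late instars and 18.6 ± 1.19 CPM in early instars. Nearest to npr-1 was TRINITY_DN20729_c1_g2 (difference 0.0991, among 5863 genes), at 1.68 ± 0.249 CPM in late instars and 4.79 ± 0.479 CPM in early instars. Nearest to the corazonin receptor was TRINITY_DN16878_c3_g3 (difference 0.106, among 6216 genes), at 14.7 ± 1.92 CPM in late instars and 14.5 ± 5.35 CPM in early instars. The study's list does not name these 3 genes.

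Within the list, the nearest gene to neuropeptide F was the octopamine receptor (difference 0.345), to npr-1 the dopamine receptor (0.447) and to the corazonin receptor syntaxin 1a (0.317). The profile of neuropeptide F differed from a flat one by 1.62 on the same scale, that of npr-1 by 0.641 and that of the corazonin receptor by 0.278. The octopamine receptor was thus much nearer to neuropeptide F than a flat profile was, whereas syntaxin 1a was farther from the corazonin receptor than a flat profile was. Within the list the mean level was not limited. The added 1 CPM shrinks the change of a gene as weak as the octopamine receptor, at 0.228 CPM in late instars. The fitted log2 fold change of that receptor was -4.98, against -3.63 for neuropeptide F.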

How the data were processed

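Total RNA of 6 pools of whole larvae was sequenced as paired-end reads (TruSeq v2 libraries, Illumina NextSeq). The authors trimmed the reads with Trimmomatic 0.36, checked them with FastQC 0.11.7, assembled the reads of both stages together with Trinity and estimated abundance with RSEM. Neither the RSEM version nor the aligner is given in the sources used here. The deposited values include expected counts for each transcript, not normalized, in which RSEM divides a fragment between the transcripts it could come from, so counts of isoforms with shared sequence depend on one another. The authors also deposited TPM and FPKM values, scaled within a library by effective length, and the percent of its gene's TPM that each isoform holds. FPKM was read but not used in any result.

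Stages were taken from the sample labels. Expected counts were rounded, and summed over isoforms for each Trinity gene. Features above 1 CPM in 2 or more of the 6 libraries were tested late against early, with stage as the only term, using edgeR 4.0.16 in R 4.3.3 (TMM factors, glmQLFit, glmQLFTest) and Benjamini-Hochberg adjustment over all of them. Calls were made at the study's limits, an adjusted p no larger than 0.001 with a change of 2 or more log2 units, and an adjusted p of at most 0.05 was given beside them. Standard errors and intervals of log2 fold changes came from the quasi-likelihood fit. Isoform usage was tested with diffSpliceDGE, reading its isoform p only, because its p for whole genes gave more false calls in simulated counts. With the dispersion (scatter between libraries) of the transcripts, the p for whole genes called 18 unchanged genes and the isoform p 0. With the dispersion of the genes these numbers were 48 and 19. Of 200 changed features in simulated counts, the quasi-likelihood test over transcripts recovered 0 at the study's limits. The isoform p of the usage test recovered 0 of 200 with the dispersion of the transcripts and 197 with that of the genes. A missing call by the transcript test at those limits thus says nothing of whether an isoform changed. A missing usage call is likewise no evidence that usage was unchanged, since the changes simulated with the dispersion of the transcripts were not recovered. Those counts had a single dispersion for all transcripts, and in the real libraries the usage test called 1.56% of isoforms. The gene test recovered all 200 of its changed features, each given a log2 change of 4. Smaller changes, and changes in genes as weak as npr-1, were not simulated, so this recovery does not extend to them.

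No 2 libraries of a stage were alike within sampling noise, and all 6 were kept. The authors' limits were also applied to edgeR's exact test and to DESeq2 1.42.0, which gave no adjusted p for 68 genes and 554 transcripts. Other alternatives were RLE factors, no composition factor, no filter, a filter on 3 libraries, a prior count of 2 instead of 0.125, robust fitting, a block for the replicate number, sums over Trinity genes with the same DN number, limma 3.58.1 on log2(TPM + 1), and each library left out in turn. The text names the 3 genes with their isoforms, tested genes with the same DN number, the study's other candidate social genes, and the gene nearest in profile to each. The genes and lists were chosen with earlier results of these data known. RT-qPCR values were not used here.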

Additional observations from a re-analysis of the deposited data

How the results depend on the processing

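Neuropeptide F was called under all 18 alternatives, with log2 fold changes of -3.89 to -2.32 and adjusted p of 2.54e-34 to 0.000546 (-3.89 to -3.41 with a library left out). For npr-1 the values were -1.87 to -0.44, the smallest in size being by limma on log2(TPM + 1), which understates changes of weak genes, with adjusted p of 1.38e-05 to 0.0119. It passed only with the limit of 0.05 (-1.74). The corazonin receptor was never called, and its sign turned to -0.11 for the sum over Trinity genes with its DN number, and within -0.068 to 0.38 with a library left out. Of the 7 tested isoforms, 1 was called by the exact test, 2 by DESeq2, 2 at an adjusted p of 0.05 and 1 with no filter (neuropeptide F i2, -3.67). With a library left out 0 were called, and the ranges crossed 0 for npr-1 i2 (-1.14 to 0.048), corazonin receptor i8 (-0.19 to 0.22) and i6 (-0.21 to 0.79, over the 4 fits in which it passed the filter). The range was -4.86 to -2.48 for npr-1 i3, and 0.85 to 7.79 for corazonin receptor i2, the highest being without early replicate 1, where all early libraries are at 0 and the fitted value depends on the prior count. No isoform of the 3 genes was called for usage in any of the 12 usage alternatives. Over all genes, 1953 were called, against 3097 by the exact test, 2936 by DESeq2, 6569 at an adjusted p of 0.05, 3828 with no filter and 1026 to 2487 with a library left out, with 1026 lacking early replicate 1, 1204 lacking early replicate 2 and 1159 lacking early replicate 3. Their calls lower in late instars were 876, against 1399, 1315, 3477, 1584 and 445 to 1001 under the same alternatives. The causes of these shifts were not tested.

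Whether the replicate numbers pair the libraries is not given in the sources and was not settled here. Deviations from the stage mean correlated at 0.111, 0.0202 and 0.221 for libraries numbered 1, 2 and 3, over 22132 genes. For late replicates 1 and 3 the best match was the early library of the same number. Late replicate 2 correlated best with early replicate 1 (0.0468). Pairs of unlike number ran from -0.237 to 0.0468. With the replicate number as a block 1691 genes were called, neuropeptide F was at -3.67 (adjusted p = 0.000184), npr-1 at -1.75 (adjusted p = 0.00444) and the corazonin receptor at 0.11 by edgeR's quasi-likelihood test. Signs turned for npr-1 i2 (0.25) and corazonin receptor i6 (-0.57), and the neuropeptide F isoforms had adjusted p of 0.0818 (i1) and 0.0563 (i2). Depth sets the counting error, which was widest relative to the level for npr-1 in late replicate 3, where 15 counts gave an interval of 0.558 to 1.64 CPM.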

Other observations

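Trinity gives related contigs the same DN number. The DN number of the corazonin receptor is shared by 1 other tested Trinity gene, TRINITY_DN18580_c1_g4, of the same read cluster, with 8 isoforms of up to 2851 bp. Its levels were 12.5, 15.5 and 10.8 CPM in late replicates 1, 2 and 3, and 17.6, 19.0 and 9.75 CPM in early replicates 1, 2 and 3, with overlapping stages (log2 fold change -0.25, SE 0.28, 95% interval -0.90 to 0.40, adjusted p = 0.554 by edgeR's quasi-likelihood test). Late replicate 2 was the highest late library for this gene and the lowest late library for the corazonin receptor. Another 3 genes with this DN number, 2 of them of the same read cluster, were too weak to be tested, and no other gene shares the DN number of neuropeptide F or npr-1.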
